A study of Homo sapiens with 8 samples.

Results

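The genes described here are 7 members of the signalling axis built around the interleukin-7 receptor and the common gamma chain, chosen by gene symbol from the 61228 genes counted in each library. They are the receptor chain IL7R, the ligands IL7, TSLP and IL15, the receptor chains IL2RG and IL15RA, and the kinase JAK3. IL7R was included because its fall with the compound ACBI1 is among the largest shared by both cell lines, so its ACBI1 values are given as a description without a test. The other 6 members were included for their place in the pathway. All 7 passed the filter on low counts, which kept 21307 genes, but IL7 and TSLP passed it only through the HCC44 libraries and IL2RG only through the HCC44 DMSO libraries. Comparisons that such a pass favours are given as a description without a test.

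RNA was measured in 8 libraries from H1975 and HCC44, which are established human non-small cell lung cancer lines and are labelled wild type in genotype. Cells of each line received either DMSO, the solvent, or ACBI1 for 96 hours, with 2 libraries in each of the 4 groups. The labels give the ACBI1 concentration as 1 mM, and that unit is doubtful because it is far above what is usual for a degrader. ACBI1 recruits the VHL ubiquitin ligase to SMARCA2, SMARCA4 and PBRM1, the ATPases and an accessory subunit of SWI/SNF chromatin remodelling complexes, and so removes the proteins. Because it acts on protein, the treatment labels cannot be checked on the targets' transcripts. Nothing in the labels says that the replicates came from separate cultures, so p-values measure only the spread between these libraries, which may be technical. Each line is a single line.

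Libraries held 62467286 to 70455517 reads assigned to genes. Levels are given in CPM, the reads of a gene relative to the size of its library, scaled between libraries with edgeR's TMM factors. Log2-scale correlations were at least 0.992 between replicates of a group and at most 0.976 between groups of a line. Among 13 leukocyte markers, 5 (CD2, CD3D, CD3E, CD3G and MS4A1) were at 0 in all 8 libraries and PTPRC held 0 to 3 counts per library. The summed level of the 13 was 20.2 and 18.3 CPM in H1975 DMSO, 17.7 and 12.9 in H1975 ACBI1, 4.48 and 4.17 in HCC44 DMSO, and 4.40 and 5.16 in HCC44 ACBI1. Most of the sum in H1975 came from CSF1R. The summed level of 6 epithelial markers read 5393 and 5137 CPM with DMSO against 2808 and 2331 with ACBI1 in H1975, and 939.8 and 979.9 against 1199 and 1658 CPM in HCC44. That of 5 fibroblast markers read 71.3 and 48.3 against 29.2 and 23.5 CPM in H1975, and 90.5 and 72.2 against 203.8 and 408 CPM in HCC44, most of it from COL1A1. The part of these marker shifts in the results below was not tested.

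IL-7 and thymic stromal lymphopoietin (TSLP) are cytokines made largely by epithelial and stromal cells. IL-7 binds IL7R paired with the common gamma chain, which IL2RG encodes, and TSLP binds IL7R paired with CRLF2. The common gamma chain is also part of the receptors for IL-2, IL-4, IL-9, IL-15 and IL-21, and it carries the kinase JAK3, while JAK1 sits on the other chain. IL-15 is presented to neighbouring cells on IL15RA. Signalling runs through STAT5 to survival genes such as BCL2 and MCL1 and to the feedback inhibitor CISH. The axis is best known for the development and upkeep of lymphocytes, and carcinoma cells can express several of its parts.

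The upstream sequences of the receptor chains IL7R and IL2RG are shown because these 2 genes had the lowest levels left after ACBI1 relative to DMSO in HCC44. They come from RefSeq on GRCh38.p14, in which 5 of the 7 members were matched; IL7 and IL15 were not matched. Each stretch lies in an intron of the longer gene models of GENCODE 29, the IL7R stretch with its last 5 bases in an exon. Each is written 5′ to 3′ on the gene's strand, with capitals marking matches to the motifs searched. The IL7R stretch is chr5:35856688-35856853 on the plus strand, 203 to 38 bases before the RefSeq start, and the IL2RG stretch is chrX:71111632-71111827 on the minus strand, 250 to 55 bases before the start.
IL7R: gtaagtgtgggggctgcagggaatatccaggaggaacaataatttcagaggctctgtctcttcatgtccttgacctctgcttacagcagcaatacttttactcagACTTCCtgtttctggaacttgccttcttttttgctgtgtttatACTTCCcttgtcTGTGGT
IL2RG: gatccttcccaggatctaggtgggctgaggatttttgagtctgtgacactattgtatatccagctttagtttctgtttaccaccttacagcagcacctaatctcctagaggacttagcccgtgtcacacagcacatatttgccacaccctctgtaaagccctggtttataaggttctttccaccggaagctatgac

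The motifs searched on both strands of the 250 bases before each start were those of ETS factors (GGAAGT), RUNX (TGTGGT), AP-1 (TGANTCA), STAT (TTCNNNGAA), IRF (GAAA, any 2 bases, GAAA), the glucocorticoid receptor (GNACA, any 3 bases, TGTNC) and kappaB. The IL7R window held the ETS letters on its reverse strand at 98 to 93 and at 55 to 50 bases before the start, and the RUNX letters at 43 to 38. None of these matches overlapped another. Among 35116 such windows of the genome's genes, 19.5% held the ETS letters, 11% the RUNX letters, 9.96% the kappaB motif, 6.57% the AP-1 letters, 6.57% the STAT letters, 3.02% the IRF letters and 0.327% the glucocorticoid receptor letters. The IL2RG window held none of the 7 motifs. The JAK3 window held a kappaB match at 30 to 21 bases before the start. IL15RA has several RefSeq starts, and the AP-1 letters TGAGTCA lay before 3 of its 4 starts, 2 of which share that site. Its windows also held the STAT letters (127 to 119), overlapping kappaB matches (188 to 179 and 187 to 178) and the ETS letters (25 to 20). Before separate starts, TSLP had a kappaB match (191 to 182) and the ETS letters (243 to 238), and its remaining window held no match. A match is a description of the letters and not a binding site.

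IL7R, the ligand-binding chain shared by the IL-7 and TSLP receptors, was present in both lines with DMSO and nearly gone with ACBI1. In H1975 it held 27.4 and 26.2 CPM with DMSO against 0.678 and 0.240 CPM with ACBI1, from 1761 and 1771 reads against 51 and 17. In HCC44 it held 12.3 and 15.9 CPM with DMSO against 0.496 and 0.456 CPM with ACBI1, from 771 and 1012 reads against 31 and 29. The groups were far from overlapping in either line, and all 4 ACBI1 libraries were below 1 CPM. In bulk RNA, fewer cells that express a gene and less RNA per cell cannot be told apart.

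Group means were 26.8 ± 0.818 CPM (SD, n = 2) and 0.459 ± 0.310 in H1975, and 14.1 ± 2.55 and 0.476 ± 0.0282 in HCC44. The fitted log2 fold change of IL7R was -5.85 in H1975, a level 57.5-fold lower, and -4.88 in HCC44, a level 29.4-fold lower. The HCC44 change was smaller in size by 0.97, a value that was 1.87 without H1975 ACBI1 replicate 1 and 0.40 without H1975 ACBI1 replicate 2. No test accompanies these values because they chose the gene. Among genes that reached 5 CPM in some group of the lines concerned, IL7R ranked first of the 1161 called as lower in both lines by mean log2 fold change (-5.36), ahead of AGT (-4.31) and IL11 (-4.20). Within the same limit it ranked first of 2748 called falls in H1975 and 14th of 2917 in HCC44. These ranks restate the values that chose IL7R and are a description only. Leaving out single libraries gave H1975 values from -6.75 (ACBI1 replicate 1 left out) to -5.28 (ACBI1 replicate 2 left out), and HCC44 values between -5.06 and -4.68.

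**Figure D1:**
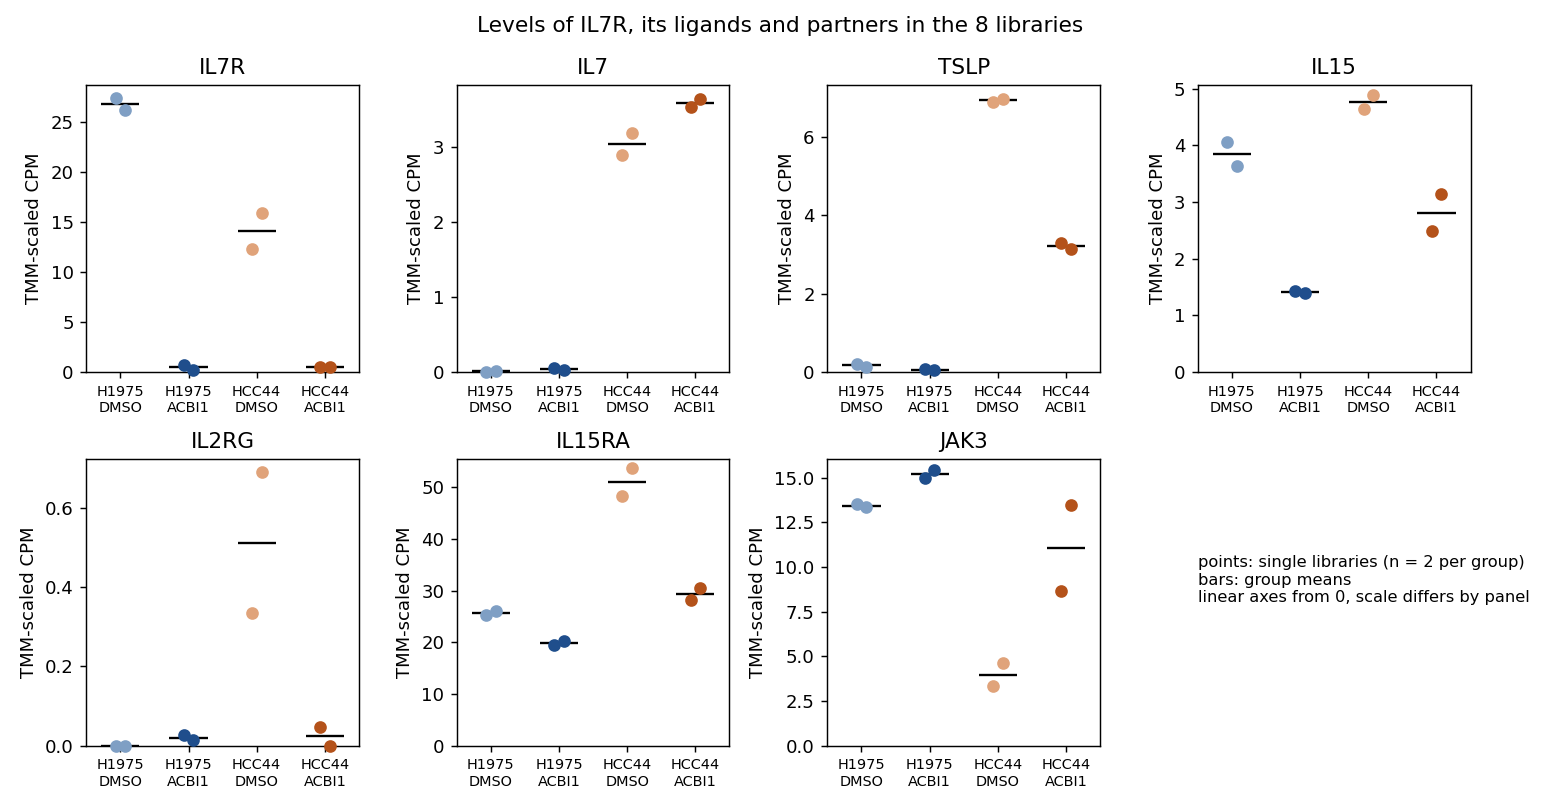
Level of each of the 7 members in all 8 libraries in CPM, with points for single libraries, bars for group means (n = 2) and a linear axis from 0 that differs by panel. The 4 IL7R values with ACBI1 lie between 0.240 and 0.678 CPM, below every DMSO library.

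The lines also differed in IL7R before treatment, a contrast that the choice of the gene did not use, although it used the same DMSO libraries. HCC44 DMSO was 1.90-fold lower than H1975 DMSO (log2 difference -0.93 ± 0.25 SE, adjusted p = 0.00719 by the quasi-likelihood test of edgeR, adjusted by Benjamini-Hochberg as throughout). That call was lost without HCC44 DMSO replicate 1 (-0.75, adjusted p = 0.0703). The lines differed in many genes, with 67.9% of tested genes called. Of the 4 members that passed the filter in H1975 too, 3 were called. IL15RA was higher in HCC44, as were 31.6% of all tested genes, and IL7R and JAK3 were lower, as were 36.4%.

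IL7, the cytokine ligand of IL7R, was made by HCC44 and not detectably by H1975. H1975 held 0 and 1 reads with DMSO and 4 and 2 with ACBI1. HCC44 held 2.89 and 3.20 CPM with DMSO (182 and 204 reads) and 3.54 and 3.65 CPM with ACBI1 (221 and 232 reads). The lines did not overlap, and within HCC44 both ACBI1 libraries were slightly above both DMSO libraries.

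The HCC44 change in IL7, 0.24 ± 0.25 SE, did not pass the test (adjusted p = 0.495). With 386 reads in HCC44 DMSO against 1 in H1975 DMSO, the ratio of levels between the lines was 402, with 95% counting limits of 71.7 and 15920. In H1975 the ratio from 6 reads with ACBI1 against 1 with DMSO was 5.43 (interval 0.659 to 249.7), which was not called (adjusted p = 0.141). IL7 lies on chromosome 8 and shares 322 exonic bases with ZC2HC1A on the opposite strand, so its reads are uncertain where the strand was not used in counting.

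TSLP, the other IL7R ligand and an epithelial alarm cytokine, fell with ACBI1 in both lines from very different starting levels. HCC44 held 6.88 and 6.98 CPM with DMSO against 3.28 and 3.15 with ACBI1, from 433 and 445 reads against 205 and 200. H1975 held 0.202 and 0.133 CPM against 0.0665 and 0.0424, from 13 and 9 reads against 5 and 3. Neither line's groups overlapped, and the H1975 values rest on few reads.

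The fall in TSLP in HCC44 was 2.16-fold (log2 fold change -1.11 ± 0.21 SE, adjusted p = 0.00227). In H1975 it was -1.58 ± 0.47 (adjusted p = 0.0260), where 22 reads against 8 allowed a ratio of 1.303 to 7.90. That H1975 call was lost without DMSO replicate 1 (-1.26, adjusted p = 0.187), or without either ACBI1 library (-1.89 with adjusted p = 0.0677 for replicate 1, and -1.28 with adjusted p = 0.177 for replicate 2). The 2 responses differed by 0.47, which did not pass the test (adjusted p = 0.602). With DMSO, 878 reads of TSLP in HCC44 stood against 22 in H1975, a ratio of 41.6 with counting limits of 27.3 and 66.7.

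IL15, a cytokine for natural killer and memory T cells, fell in both lines. H1975 held 4.05 and 3.64 CPM with DMSO against 1.42 and 1.40 with ACBI1, from 261 and 246 reads against 107 and 99. HCC44 held 4.64 and 4.89 CPM against 2.48 and 3.15, from 292 and 312 reads against 155 and 200. The DMSO libraries of the lines lay near one another, and every ACBI1 library was below every DMSO library.

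The log2 fold change of IL15 was -1.45 ± 0.21 SE in H1975, a 2.72-fold fall (adjusted p = 0.000684), and -0.76 ± 0.21 in HCC44, a 1.69-fold fall (adjusted p = 0.0146). The HCC44 call was lost without DMSO replicate 1 (-0.80, adjusted p = 0.0515), without DMSO replicate 2 (-0.72, adjusted p = 0.0780) or without ACBI1 replicate 1 (-0.60, adjusted p = 0.0846). The difference between the responses, 0.68 ± 0.29, did not pass (adjusted p = 0.134), nor did that between the DMSO libraries of the lines (0.31 ± 0.20, adjusted p = 0.195).

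IL15RA, the chain that binds IL-15 and presents it, fell modestly in both lines. H1975 held 25.2 and 26.0 CPM with DMSO against 19.4 and 20.3 with ACBI1. HCC44 held 48.2 and 53.8 CPM against 28.2 and 30.5. The groups were separate in each line, and the treated HCC44 libraries were still above the untreated H1975 libraries.

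The log2 fold change of IL15RA was -0.80 ± 0.11 SE in HCC44 (adjusted p = 0.000251) and -0.37 ± 0.11 in H1975 (adjusted p = 0.0239). The H1975 call was lost when libraries were scaled by their totals (-0.16, adjusted p = 0.253), and without any single H1975 library (-0.40 to -0.29). The difference between the responses was -0.43 ± 0.15 and missed the threshold (adjusted p = 0.0713), while it passed with DESeq2 (-0.47), with library totals (-0.54) and in the fit blocked on replicate (-0.43, adjusted p = 0.0203). With DMSO, IL15RA was 1.99-fold higher in HCC44 (adjusted p = 9.53e-06).

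IL2RG, the common gamma chain itself, was close to the limit of detection. H1975 held 0 and 0 reads with DMSO and 2 and 1 with ACBI1, so no fold is given there. HCC44 held 21 and 44 reads with DMSO (0.334 and 0.690 CPM) and 3 and 0 with ACBI1. IL2RG passed the filter only through the HCC44 DMSO libraries, which were above the other 6.

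In HCC44, 65 reads of IL2RG with DMSO against 3 with ACBI1 put the ratio at 21.6, with 95% counting limits of 7.06 and 107. The fitted log2 fold change was -4.32, moving to -8.10 with ACBI1 replicate 1 left out and to -3.37 with ACBI1 replicate 2 left out. HCC44 DMSO was at least 22.6-fold higher than H1975 DMSO, taking 3 counts over the group as the limit that a count of 0 allows. These values carry no test, since the high HCC44 DMSO group alone brought IL2RG past the filter. The intervals cover counting error only. The GENCODE 29 model of IL2RG shares 1403 exonic bases with AL590764.2 on the same strand, a gene that the count tables do not list by that name.

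JAK3, the kinase bound to the common gamma chain, rose in HCC44. HCC44 held 3.34 and 4.62 CPM with DMSO against 8.66 and 13.5 with ACBI1, from 210 and 295 reads against 541 and 855. H1975 held 13.5 and 13.4 CPM with DMSO against 14.95 and 15.5 with ACBI1, from 869 and 904 reads against 1124 and 1093. The HCC44 groups were separate and unequal within each group. With ACBI1, HCC44 replicate 2 (13.5 CPM) came near the level of H1975, while replicate 1 (8.66 CPM) stayed below every H1975 library.

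The log2 fold change of JAK3 was 1.47 ± 0.22 SE in HCC44, a 2.78-fold rise (adjusted p = 0.000508), and 0.18 ± 0.21 in H1975 (adjusted p = 0.557). The difference between the responses was itself called, at 1.29 ± 0.30 (adjusted p = 0.0142), and was lost without HCC44 DMSO replicate 1 (1.08, adjusted p = 0.0644). With DMSO, JAK3 was 3.37-fold lower in HCC44 (adjusted p = 3.28e-05).

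Among the 5 members other than IL7R and IL2RG, 3 were called in H1975, all lower (TSLP, IL15 and IL15RA), where 31.3% of all tested genes were called, 16.7% as lower and 14.6% as higher. In HCC44 4 of the 5 were called, with JAK3 higher and TSLP, IL15 and IL15RA lower, where 34.9% of all tested genes were called, 17.4% as lower and 17.5% as higher. Their median log2 fold change was -0.37 in H1975 and -0.76 in HCC44, beside -0.01 and 0.01 for all tested genes. Without H1975 DMSO replicate 1 or either H1975 ACBI1 library the H1975 count was 1. With libraries scaled by their totals, the share of all calls that were higher rose from 46.6 to 72.3% in H1975 and stood at 60.5% instead of 50.01% in HCC44. The difference between the responses was called for 1 of the 5, JAK3 (higher in HCC44, as were 10.2% of all tested genes), and not without HCC44 DMSO replicate 1. Of all tested genes 18.6% had a called difference, and 8.40% of all tested genes had one that was lower in HCC44. Of the 3 called in both lines, each fell in both. Of all tested genes, 16.1% were called in H1975 alone and the rest of the 31.3% in both lines.

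**Figure D2:**
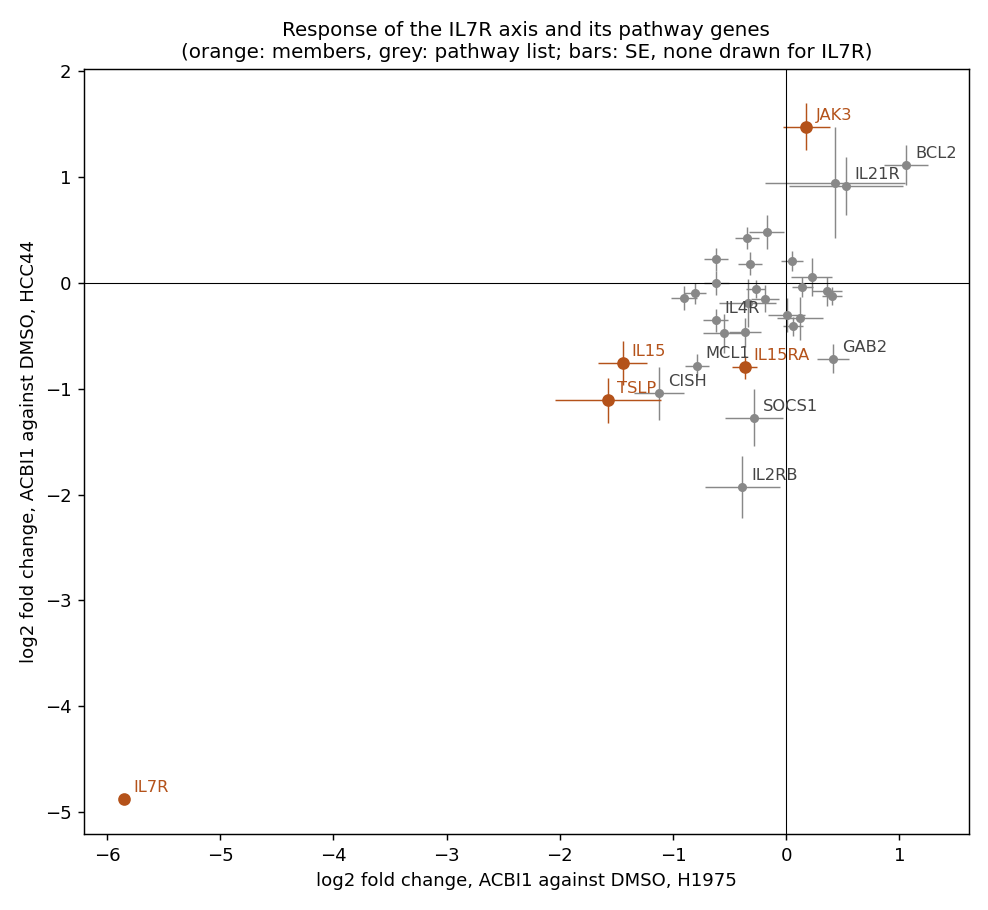
Log2 fold change with ACBI1 in H1975 on the horizontal axis against HCC44 on the vertical axis for members (orange) and the tested pathway genes (grey), with bars for the SE and none for IL7R. IL7 and IL2RG are left out because H1975 held too few reads, and IL7R lies alone at -5.85 and -4.88.

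Per kilobase of exon, the order of the members' levels in H1975 DMSO was IL15RA (7.05 CPM per kb), IL7R (4.42), JAK3 (1.97) and IL15 (0.489), with TSLP, IL7 and IL2RG lowest. In HCC44 DMSO it was IL15RA (14.04 CPM per kb), IL7R (2.32), TSLP (1.62), IL7 (0.898), IL15 (0.606), JAK3 (0.584) and IL2RG. IL15 and JAK3 overlapped there over their replicates, while the other named neighbours did not. With ACBI1, IL7R stood at 0.0758 CPM per kb in H1975 and 0.0786 in HCC44, below JAK3 (2.23 and 1.62) and IL15RA (5.46 and 8.07).

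The wider pathway was read from a list of 36 further receptor, kinase, STAT, adaptor and target genes, of which 29 passed the filter. The ligands IL2, IL9 and IL21 were at 0 in all 8 libraries and IL2RA held 0 to 2 reads, so those parts of the family were not detectable at this depth. CRLF2, the TSLP partner chain, and IL9R were also at 0. That says nothing of their expression, since 17 of 18 protein-coding genes that GENCODE 29 lists on both X and Y were at 0 in all 8 libraries. In H1975 13 of the 29 were called, 10 lower and 3 higher (BCL2, GAB2 and STAT5B, median of the 29 -0.27), beside 31.3% of all tested genes. In HCC44 12 were, 8 lower and 4 higher (median -0.13), beside 34.9%.

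Of the 29, IL4R, CISH and MCL1 were lower in both lines and BCL2 was higher in both. Of all tested genes, 31.3% were called in H1975, 16.1% there alone and the rest in both lines. MCL1, an anti-apoptotic BCL2 relative, fell from 635 ± 40.1 to 367 ± 24.8 CPM (SD, n = 2) in H1975, and in HCC44 from 866 ± 94.1 to 504 ± 39.1, log2 fold changes of -0.79 and -0.78 (adjusted p = 0.000368 and 0.000259). BCL2, which blocks mitochondrial cell death, rose from 2.68 ± 0.165 to 5.59 ± 0.280 CPM in H1975, and in HCC44 from 4.87 ± 0.373 to 10.5 ± 2.21, by 1.06 and 1.11. The 2 survival genes therefore moved in opposite directions in each line. CISH, a STAT5 target that restrains cytokine receptors, had log2 fold changes of -1.12 (H1975, adjusted p = 0.00348) and -1.05 (HCC44, adjusted p = 0.00788), and the HCC44 call was lost without HCC44 ACBI1 replicate 1 (-0.80, adjusted p = 0.0523). IL4R, the IL-4 receptor chain that pairs with the common gamma chain, fell by 0.62 and 0.36. The HCC44 call of IL4R was lost with library totals and without any single HCC44 library (-0.37 to -0.34, adjusted p up to 0.111).

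Of the 29, 7 were called in H1975 and not in HCC44, beside 16.1% of all tested genes, and 6 in HCC44 and not in H1975, beside 19.8%. In H1975 these included the kinase JAK1 (-0.62, adjusted p = 0.00178) and the transcription factor STAT6 (-0.90, adjusted p = 0.000262). Leaving out any library kept both calls, with ranges of -0.73 to -0.46 and -0.96 to -0.79. For both the difference between the responses was called too. In HCC44 the largest fall was in IL2RB, the chain shared by the IL-2 and IL-15 receptors, from 6.65 ± 0.0220 to 1.74 ± 0.787 CPM (-1.93, adjusted p = 0.000530), and SOCS1, an inhibitor of JAK kinases, fell by 1.28 (adjusted p = 0.00385). The IL2RB responses differed between the lines by -1.54 (adjusted p = 0.0327), a call lost in 5 of 8 leave-one-out fits, and the SOCS1 responses by -0.99, which did not pass (adjusted p = 0.0873). IL21R, the IL-21 receptor chain, rose from 10.4 ± 1.76 to 19.5 ± 2.69 CPM (0.92, adjusted p = 0.0250), a call lost without HCC44 DMSO replicate 1, DMSO replicate 2 or ACBI1 replicate 1 (0.75, 1.10 and 0.77). Its difference between the lines did not pass (0.39, adjusted p = 0.708). IL21R shares 1273 exonic bases with an antisense gene, so its value is uncertain without strand.

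Smaller changes were less stable. The adaptor GAB2 (0.41) and STAT3 (-0.27) were called in H1975, and both calls were lost without any single H1975 library or either HCC44 DMSO library (0.33 to 0.54 and -0.32 to -0.17). The STAT3 call was also lost with DESeq2, RLE size factors and library totals (-0.24, -0.24 and -0.07), and that of GAB2 without the filter and with H1975 fitted alone (0.41 in both). IL13RA1, an IL-13 receptor chain (-0.32), lost its H1975 call without either HCC44 DMSO library, either H1975 ACBI1 library or H1975 DMSO replicate 2 (-0.42 to -0.16), with DESeq2, RLE size factors and library totals (-0.29, -0.29 and -0.12), and with H1975 fitted alone (-0.32). The adaptor SHC1 fell in H1975 (-0.34) and rose in HCC44 (0.42), and the H1975 call was lost without either DMSO library or ACBI1 replicate 1 (-0.37 to -0.19) and the HCC44 call without either DMSO library or ACBI1 replicate 2 (0.31 to 0.43). The H1975 call was also lost with DESeq2, RLE size factors and library totals (-0.31, -0.31 and -0.14). STAT5B (0.40 in H1975) lost its call without H1975 ACBI1 replicate 2 (0.38). In HCC44 the calls of PIK3R1, a regulatory subunit of PI3K (-0.47), and of the kinase PIM1 (0.48) were lost in 3 of 8 leave-one-out fits each. These were without either DMSO library or ACBI1 replicate 1 for PIK3R1 (-0.50 to -0.41), which also lost its call with library totals (-0.38), and without DMSO replicate 2 or either ACBI1 library for PIM1 (0.31 to 0.49). GAB2 fell in HCC44 (-0.72), and its responses differed between the lines.

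Transcription factors that are known to act on IL7R in lymphocytes were read from a list of 11, of which 9 passed the filter. Of the 9, 4 were called in H1975 (2 lower and 2 higher), beside 31.3% of all tested genes. In HCC44 5 were (3 lower and 2 higher), beside 34.9%. FOXO1, GABPA and GABPB1 were called in neither line, though GABPA passed as higher in H1975 with library totals (0.40). GFI1, a repressor of IL7R in T cells, rose in both lines and FOXP1 fell in both. GFI1 went from 20 and 16 reads to 43 and 46 in H1975, a log2 fold change of 1.16 (adjusted p = 0.00463). In HCC44 GFI1 rose from 24.6 ± 1.14 to 49.9 ± 5.38 CPM, by 1.02 (adjusted p = 0.000188). The H1975 level of GFI1 was low, below 1 CPM in every library. FOXP1, which opposes FOXO1 at the IL7R gene, fell by 0.40 in H1975 and by 0.49 in HCC44, and the H1975 call was lost with library totals and without H1975 DMSO replicate 2 (-0.32) or ACBI1 replicate 1 (-0.26).

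RUNX3 moved in opposite directions, 1.66 in H1975, where only 7 reads stood against 25, and -0.68 in HCC44 (adjusted p = 0.0183 and 0.00520). Without single libraries the H1975 value ranged from 1.19 to 2.44, and the call was lost without H1975 DMSO replicate 1 (1.19), ACBI1 replicate 1 (1.68) or ACBI1 replicate 2 (1.69), and with H1975 fitted alone (1.66). NR3C1, the glucocorticoid receptor, fell in H1975 (-0.63, adjusted p = 0.00418), a call lost without H1975 DMSO replicate 2 (-0.39) or ACBI1 replicate 1 (-0.46). ETS1 rose in HCC44 (0.38, adjusted p = 0.0240), a call lost without DMSO replicate 1 (0.30) or ACBI1 replicate 1 (0.21). RUNX1 fell there (-0.42, adjusted p = 0.0436), and that call was lost in 6 of 8 leave-one-out fits, all but those without H1975 DMSO replicate 1 or HCC44 ACBI1 replicate 1 (-0.69 to -0.18 over the 8), with library totals (-0.33) and with HCC44 fitted alone (-0.41).

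None of the tested genes beside IL7R on chromosome 5 was called as lower. IL7R spans chr5:35852695-35879603 on GRCh38, and of the 16 nearest protein-coding genes, 8 on each side, 10 passed the filter. None of the 10 was called in H1975, beside 31.3% of all tested genes, and 1, TTC23L, rose in HCC44 (1.94), beside 34.9%. The nearest that passed was SPEF2, 38.1 kb away, with 0.33 ± 0.20 SE in H1975 and -0.40 ± 0.21 in HCC44. DNAJC21 (0.21 and 0.19), LMBRD2 (0.48 and 0.03) and SKP2 (-0.03 and 0.22) completed the nearest 2 on each side. LMBRD2 passed as higher in H1975 with DESeq2, with RLE size factors, with library totals, without the filter, with the replicate block, and without H1975 DMSO replicate 2 (0.73) or ACBI1 replicate 1 (0.76), and DNAJC21 passed as higher in both lines with library totals and with the replicate block.

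**Figure D3:**
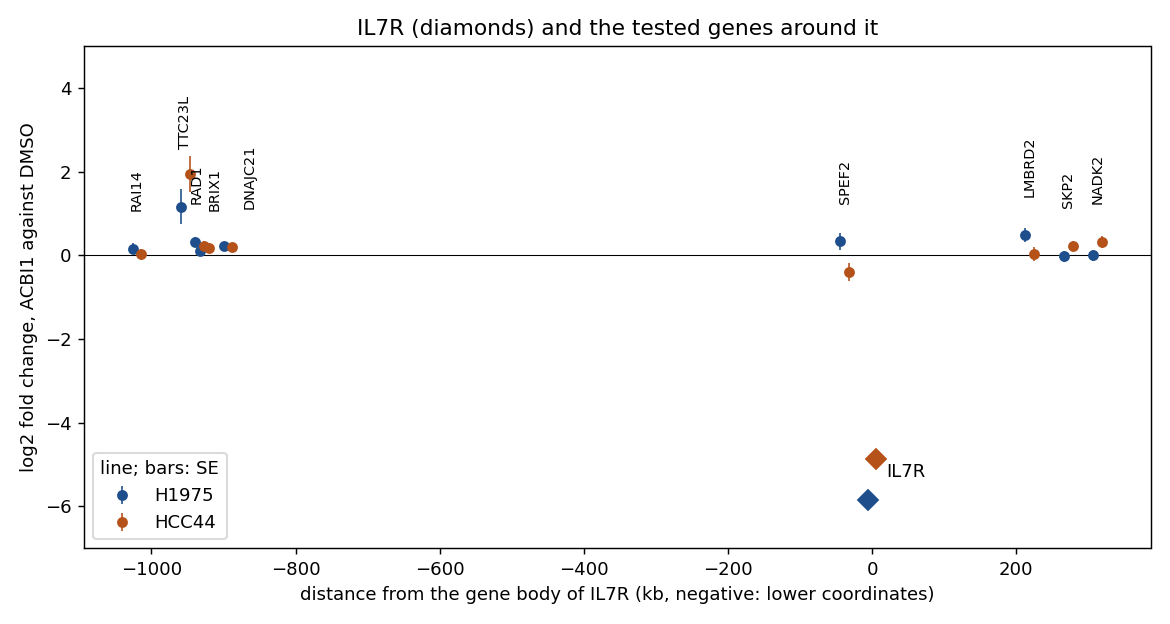
Log2 fold change with ACBI1 in each line for IL7R and its protein-coding neighbours on chromosome 5 that passed the filter, by distance from IL7R in kb, with bars for the SE and with SLC1A3 left out because H1975 DMSO held 0 reads of it. IL7R is at -5.85 and -4.88 while SPEF2, the nearest neighbour tested, is at 0.33 and -0.40.

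The genes whose pattern over the 8 libraries was most like that of IL7R were sought among 10603 genes that reached 5 CPM in some group of both lines. Likeness was the root mean square difference between log2 CPM profiles (prior count 2), each centred on its own mean. The closest 5 included IL11 (1.10), AGT (1.23), IL24 (1.23) and MX2 (1.25). IL11 is a cytokine of the IL-6 family, IL24 a cytokine of the IL-10 family, AGT the angiotensin precursor and MX2 an interferon-induced antiviral protein. Their log2 fold changes in H1975 and HCC44 were -3.16 and -5.25 for IL11, -2.88 and -5.73 for AGT, -3.54 and -2.62 for IL24, and -4.51 and -2.52 for MX2. IL11 fell from 239 ± 35.5 to 26.8 ± 2.02 CPM (SD, n = 2) in H1975, and the HCC44 means were 363 ± 84.1 and 9.54 ± 1.18. These genes were chosen by values that include the treatment, so their falls are a description.

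**Figure D4:**
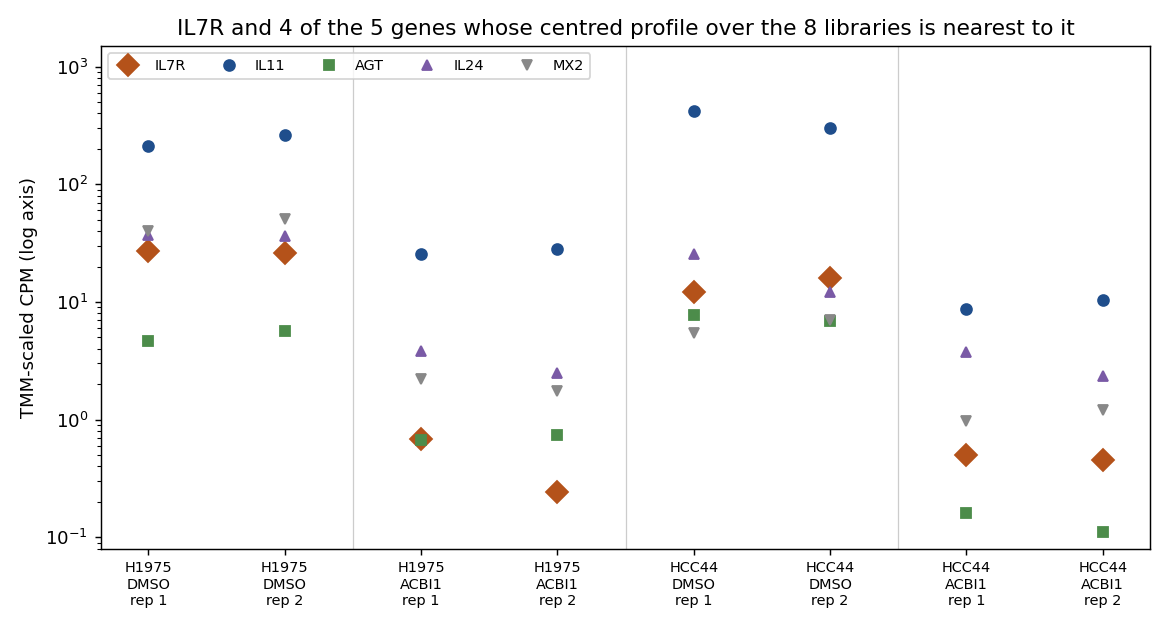
TMM-scaled CPM on a log axis for IL7R (diamonds) and 4 of the 5 genes whose centred profiles are closest to it, in each of the 8 libraries. In all of them the DMSO libraries of a line lie above its ACBI1 libraries.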

How the data were processed

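The authors deposited raw read counts per gene, with a separate table for each library. TopHat2 2.1.1, HTSeq 0.11.0 and the build hg38 are named in the submitters' processing notes. The annotation and strand setting are not given in the sources used here. Summary rows (14.3 to 15.8% of each total) were left out. GENCODE 29 supplied positions, exon lengths and overlaps. Further named genes also share exonic bases with another gene, so their reads depend on the annotation and strand setting. Among these, TSLP (230 bases), IL4R (339) and CISH (218, with MAPKAPK3) overlap on the opposite strand. IL15RA (151), SHC1 (335, with PYGO2) and FOXP1 (2539, with AC097634.4) overlap on the same strand.

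Counts were tested with edgeR 4.0.16 in R 4.3.3. The filterByExpr filter (minimum count 10), TMM scaling and 1 model with a mean per group over all 8 libraries were used, with 4 residual degrees of freedom. Groups were compared by its two-sided quasi-likelihood F-test (robust dispersion), with Benjamini-Hochberg adjustment over all 21307 genes and a threshold of 0.05. Standard errors are the log2 fold change divided by the square root of F. Counting intervals are exact and cover 95%. In counts simulated for 21307 genes, 200 genes without low counts were changed and the groups were otherwise equal. Of the 2-fold and 4-fold changes, 68% and 96% were recovered in H1975, and 72% and 95% in HCC44. Of all calls in the simulation, 10.9% were false in H1975 and 13.9% in HCC44, a larger share than the threshold of 0.05 aims at. Far fewer genes were changed there than were called in the data (6663 in H1975 and 7438 in HCC44). The share of false calls depends on how many genes change, so these shares do not carry over to the calls above. The recovery does not extend to genes with few reads.

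No library was a copy of its replicate (chi-square per degree of freedom 24.0 to 48.4). The members and lists were chosen with earlier results of these data known. Named genes are the 7 members, the called genes of the pathway and regulator lists, the 2 nearest tested neighbours on each side of IL7R and the 5 most similar profiles. Not every gene named by this rule is reported. CSF1R, TTC23L and the genes ranked after IL7R were named after their values were seen. The alternatives were DESeq2 1.42.0, RLE size factors, library totals, no filter, each line alone, a replicate block and leaving out each library.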

Additional observations from a re-analysis of the deposited data

Results flagged for a closer look

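The genes listed here responded differently to ACBI1 in the lines. Except for those most like IL7R, which are described without a test, they were called by edgeR's test of the difference itself. Values are the HCC44 response minus the H1975 response on the log2 scale. Among members, JAK3 differed by 1.29. Its call was lost without HCC44 DMSO replicate 1 (1.08).

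In the pathway list the response was higher in HCC44 for IL13RA1 (0.50), JAK1 (0.84), STAT6 (0.76), SH2B3 (0.61) and SHC1 (0.76). It was lower in HCC44 for IL2RB (-1.54), STAT5B (-0.53), GRB2 (-0.47) and GAB2 (-1.13). With each library left out in turn, 3 of 8 fits kept the call for IL2RB (-2.10 to -1.14), GRB2 (-0.56 to -0.38) and IL13RA1 (0.34 to 0.61), and 5 of 8 for STAT5B (-0.63 to -0.47) and SH2B3 (0.48 to 0.73). The IL13RA1 call was also lost with DESeq2 (0.47), RLE size factors (0.47) and library totals (0.39). Among the transcription factors, RUNX3 differed by -2.34 and NR3C1 by 0.63. The NR3C1 call was kept in 3 of 8 leave-one-out fits (0.38 to 0.80) and lost with RLE size factors (0.59) and library totals (0.52). The genes most like IL7R were chosen by values that include the treatment, so their differences are a description. IL11 differed by -2.09, AGT by -2.85 and MX2 by 1.997. IL11 and AGT thus fell further in HCC44 and MX2 fell further in H1975.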

How the results depend on the processing

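No change of a named gene that was called in the main fit or in an alternative run differed in sign between them. Some uncalled values changed sign when single libraries were left out. The IL21R difference between the lines ranged from -0.47 to 1.13, and SKP2 in H1975 from -0.13 to 0.12. Over all alternatives the members' tests reported above kept their side of the threshold in 239 fits, lost a call in 13 and gained one in 3. Leaving out each library in turn, the members other than IL7R called numbered 1 to 3 in H1975. For the difference between the lines the count was 0 to 2 (2 with all libraries). That count includes IL2RG, whose difference is not taken as a test, since its high HCC44 DMSO group alone brought it past the filter. Without IL2RG, 1 member (JAK3) was called with all libraries. Leaving out single libraries lost the JAK3 call only without HCC44 DMSO replicate 1 (1.08). Tested genes called numbered 3690 to 7161 in H1975 and 4945 to 7342 in HCC44, against 6663 and 7438 with all libraries, and pathway genes called in HCC44 numbered 7 to 12. The low counts came without ACBI1 replicate 2 in H1975 (3690) and without DMSO replicate 2 in HCC44 (4945 and 7). Scaling by library totals moved the median log2 fold change of all tested genes in H1975 from -0.01 to 0.18, and in HCC44 from 0.01 to 0.09. The share of higher calls for the difference between the lines was 40.5% instead of 54.9%.

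The deviations of same-numbered replicates from their group means correlated at 0.374 (H1975) and 0.109 (HCC44), but with 2 pairs a line the numbers were not taken as pairing. With the replicate block 9103 genes were called in H1975 and 9533 in HCC44. The members other than IL7R and IL2RG kept their side of the threshold in each line. Among those members, the difference between the responses was then called for IL15RA (-0.43) and JAK3.

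With 2 libraries a group, the spread within a group is known poorly, and members with few reads (IL2RG in both lines, IL7 and TSLP in H1975) are limited by depth.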
